A study of Mus musculus with 15 samples.

Results

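The genes described here are 43 genes of DNA replication and mitosis, read in the raw count table of bulk RNA sequencing of mouse fat. They were taken by symbol from a given list, and each symbol was matched to 1 Ensembl gene identifier. All 43 were found among the 37991 identifiers of the table, and all 43 passed the filter on low counts in every comparison. By role, 17 act in DNA replication and 26 in mitosis. The study set C57BL/6 mice lacking interleukin 33 (Il33) against wild-type C57BL/6 mice. The 4 groups were inguinal white fat of knockout mice at postnatal day 24 (3 libraries, numbered 2 to 4), inguinal white fat of wild-type mice at day 24 (4 libraries), brown fat labelled as knockout at postnatal day 0.5 (4 libraries), and wild-type brown fat at day 0.5 (4 libraries). Nothing in the labels tells whether each library is a different animal, so p-values here reflect variation between libraries that could be technical. The knockout genotype is given as IL-33-/-, and all libraries are from bulk tissue.

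Cells copy their DNA once per cycle and then divide it. Before replication starts, Cdc6 and Cdt1 load the ring of Mcm proteins on DNA, and cyclin E with its kinase, downstream of E2f1, lets the rings fire. Entry into mitosis is driven by cyclins A and B with Cdk1, after which Aurora and Polo kinases, the kinetochore, the spindle checkpoint and the spindle motors separate the chromosomes. In growing fat pads these transcripts come from whichever cells are cycling, among them progenitors, vessel cells and blood cells. In bulk tissue, fewer cycling cells and less of a transcript per cycling cell cannot be told apart.

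The replication and mitosis genes are usually described as controlled through different promoter words, and the start regions of 5 members are shown because they carry those words. The sequences are RefSeq windows of build GRCm38.p6, from 250 bases before to 50 bases after the gene start, written 5′ to 3′ on the gene's strand. Capitals mark 3 kinds of word on either strand: the E2F words TTTCCCGC, TTTGGCGC, TTTGCCGC and TTTCGCGC, the cell cycle homology (CHR) word TTTGAA, and the NF-Y word CCAAT. Where words overlap, the capitals run on as 1 stretch. Mcm6 and Mcm3 had the lowest p in inguinal fat among replication genes with 1 window that held an E2F word. Cenpf and Top2a had the lowest among mitosis genes with 1 window that held a CHR word. Cdk1 was added because its window holds all 3 kinds. The windows are chr1:128359656-128359955 for Mcm6, chr1:20820263-20820562 for Mcm3, chr1:189688037-189688336 for Cenpf, chr11:99024140-99024439 for Top2a and chr10:69352863-69353162 for Cdk1, all on the minus strand.
Mcm6: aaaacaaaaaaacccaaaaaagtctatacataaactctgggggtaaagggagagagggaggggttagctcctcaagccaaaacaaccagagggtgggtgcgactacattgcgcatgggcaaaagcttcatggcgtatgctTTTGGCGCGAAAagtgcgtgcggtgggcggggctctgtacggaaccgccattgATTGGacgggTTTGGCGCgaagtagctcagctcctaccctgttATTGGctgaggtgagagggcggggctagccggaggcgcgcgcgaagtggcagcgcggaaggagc
Mcm3: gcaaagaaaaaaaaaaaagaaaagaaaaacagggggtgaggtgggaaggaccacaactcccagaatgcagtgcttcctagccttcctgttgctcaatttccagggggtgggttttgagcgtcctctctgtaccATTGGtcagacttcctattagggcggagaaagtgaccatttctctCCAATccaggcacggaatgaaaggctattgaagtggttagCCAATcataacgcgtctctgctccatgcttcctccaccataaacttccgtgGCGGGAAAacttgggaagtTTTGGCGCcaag
Cenpf: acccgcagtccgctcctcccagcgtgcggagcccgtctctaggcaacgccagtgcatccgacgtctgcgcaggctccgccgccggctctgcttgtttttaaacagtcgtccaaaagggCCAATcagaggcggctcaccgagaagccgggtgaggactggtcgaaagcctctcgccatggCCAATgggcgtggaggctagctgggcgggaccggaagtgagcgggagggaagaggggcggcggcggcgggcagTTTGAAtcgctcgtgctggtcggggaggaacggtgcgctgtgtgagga
Top2a: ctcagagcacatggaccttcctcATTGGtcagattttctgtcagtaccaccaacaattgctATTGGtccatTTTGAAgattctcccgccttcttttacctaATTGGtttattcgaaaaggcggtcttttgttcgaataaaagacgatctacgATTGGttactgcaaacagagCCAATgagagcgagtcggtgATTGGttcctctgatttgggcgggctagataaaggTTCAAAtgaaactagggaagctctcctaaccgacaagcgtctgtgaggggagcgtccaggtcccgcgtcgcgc
Cdk1: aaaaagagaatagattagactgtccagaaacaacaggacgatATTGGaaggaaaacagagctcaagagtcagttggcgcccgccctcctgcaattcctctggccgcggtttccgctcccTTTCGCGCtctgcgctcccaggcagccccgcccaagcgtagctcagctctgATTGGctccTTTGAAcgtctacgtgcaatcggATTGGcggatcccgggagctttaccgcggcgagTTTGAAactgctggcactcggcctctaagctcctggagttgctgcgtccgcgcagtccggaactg

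Positions are counted from the gene start, with negative numbers before it. Mcm6 held an E2F word at -110, one overlapping it on the other strand at -106, and another at -47. Mcm3 held its E2F words after the start, at 20 and 39. Neither window held TTTGAA. Cenpf had the CHR word at 3 and CCAAT words at -132 and -71. In Top2a the CHR words stood at -179 and -23, and 6 NF-Y words lay in the window. The Cdk1 window was the only mitosis window with an E2F word, at -131, and it also had CHR words at -71 and -15.

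A window was on hand for 14 of 17 replication genes and 21 of 26 mitosis genes. Mcm7, Uhrf1 and Prc1 had more than 1 window, and a gene was counted as holding a word if any of its windows did. An E2F word was found in 50% of these replication genes (7 of 14) and 4.76% of the mitosis genes (1 of 21). Over all 27025 genes with a window the share was 2.6%. The CHR word was found in 7.14% of replication genes (1 of 14) and 76.2% of mitosis genes (16 of 21), beside 20.2% of all. CCAAT stood in 64.3% of replication genes (9 of 14) and 85.7% of mitosis genes (18 of 21), beside 41.1% of all. CHR and CCAAT co-occurred in 7.14% of replication genes (1 of 14) and 71.4% of mitosis genes (15 of 21), beside 7.97% of all. The CHR spelling TTTAAA was in 28.6% of replication and 33.3% of mitosis genes, beside 14.9% of all. The median GC content was 59.8% for the replication windows, 61.3% for the mitosis windows and 52.7% for all. These matches are a description of letters and were not tested as binding sites.

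**Figure D1:**
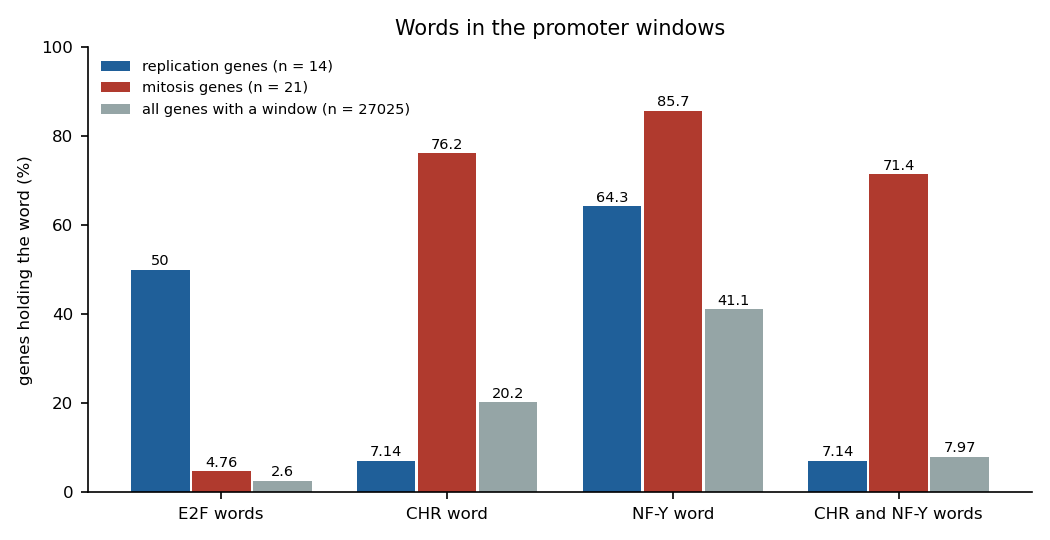
Share of genes with a promoter window that holds each word (vertical axis, % of genes with a window) for the 14 replication genes, the 21 mitosis genes and all 27025 genes with a window. Among E2F words the replication bar is the highest of its 3 bars (50%), and among CHR words the mitosis bar is (76.2%).

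Total counts ran between 26059635 and 53923009 per library. Levels are given as CPM, a gene's counts set against its library's total. Il33 itself was at 0.346, 0.471 and 0.0791 CPM in inguinal knockout libraries, against 3.45, 4.61, 3.82 and 3.55 in inguinal wild-type libraries, with no overlap (log2 change -3.73, SE 0.36, adjusted p = 1.25e-05). In brown fat it was at 0.413, 1.75, 1.41 and 0.594 CPM in labelled knockout libraries, against 1.82, 3.21, 2.01 and 1.73 in wild-type libraries. The brown groups overlapped (-1.08, SE 0.44, adjusted p = 0.229), and the brown knockout is called by its label below. Labelled knockout library 1 stood far from the other 3 of its group over all genes (chi-square per degree of freedom of 137 to 199, against 20.9 to 48.5 among the other 3). Wild-type brown libraries fell into the pairs 1 and 2 (22.1) and 3 and 4 (16.9), with 65.3 to 84.2 across the pairs. Brown calls are therefore given with and without labelled knockout library 1. The CPM values are scaled by the trimmed mean of M-values (TMM) over all 15 libraries. Changes are log2 ratios from edgeR's quasi-likelihood test, with p-values adjusted by Benjamini-Hochberg over all genes tested, and a gene was called below an adjusted p of 0.05.

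In inguinal fat at day 24, replication and mitosis genes were lower in knockout libraries in each of 7 roles, from loading of the helicase to the spindle. Of the 43 genes, 34 fell and 0 rose, beside 13.3% of all 15710 genes tested that fell and 15.3% that rose. By class, 12 of 17 replication genes and 22 of 26 mitosis genes fell. Without knockout library 3, 14 of the 26 mitosis genes passed. The log2 change was below 0 for 42 of 43 members, beside 51.9% of all genes. The knockout and wild-type libraries did not overlap for 28 members, all lower in the knockout, beside 18.5% of all genes. The median log2 change was -0.47 for replication genes and -0.65 for mitosis genes, beside -0.016 for all genes. Members lay between -0.88 for the cyclin Ccna2 and 0.02 for the cyclin Ccne1. The count depends on how the spread is estimated: with all 4 groups in 1 fit, which brings in the brown libraries, 5 members (Mcm3, Mcm4, Mcm6, Pcna and E2f1) were called lower, beside 6.26% of all genes. No mitosis gene was among them.

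**Figure D2:**
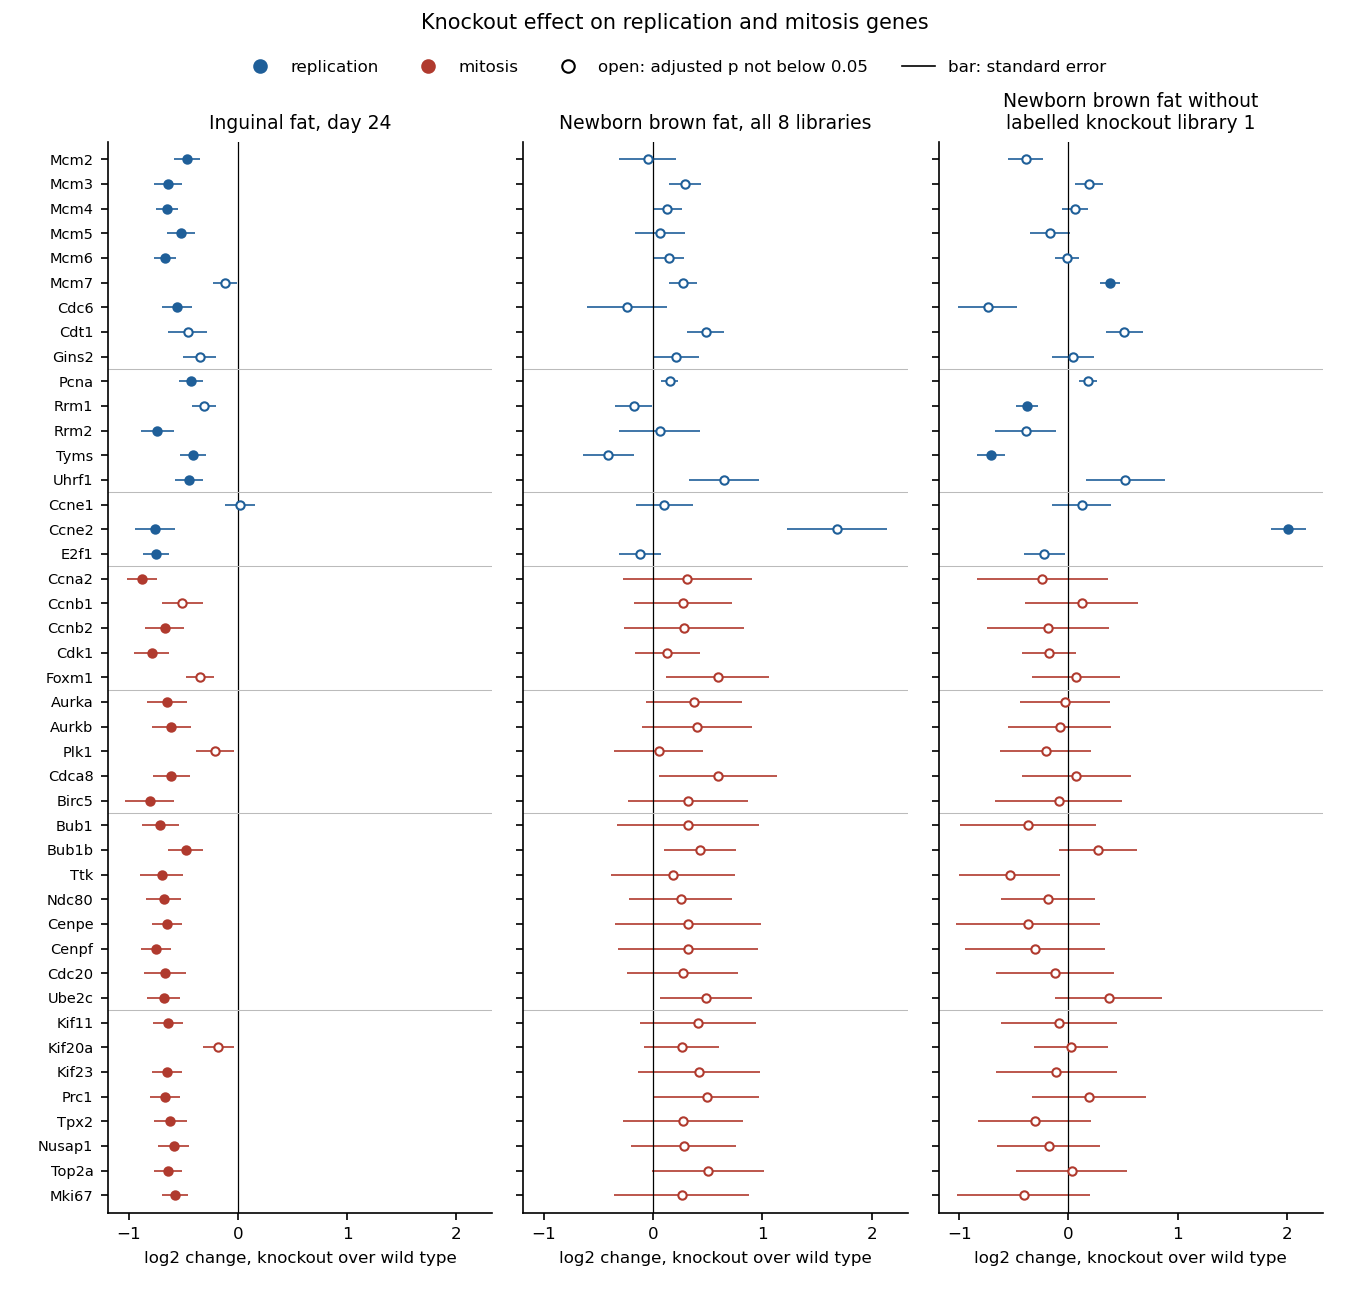
Log2 change of each of the 43 genes, knockout over wild type (horizontal axis, bar: standard error), in inguinal fat, in brown fat with all 8 libraries, and in brown fat without labelled knockout library 1. Filled points passed an adjusted p of 0.05: 34 lie below 0 in inguinal fat, none is filled with all 8 brown libraries, and 4 replication genes are filled without library 1.

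Among the licensing and helicase genes, 6 of 9 fell. Mcm6, a subunit of the helicase ring, had 30.6, 30.3 and 33.9 CPM in knockout libraries, against 47.4, 45.3, 51.5 and 58.2 CPM in wild-type libraries. Every knockout library lay below every wild-type library, and the log2 change was -0.67 (SE 0.10, edgeR adjusted p = 0.000339). The ring subunit Mcm4 had 20.8, 25 and 26 CPM in knockout libraries, against 37.4, 34, 38.1 and 41.6 CPM in wild-type libraries. Its change was -0.65 (SE 0.10, edgeR adjusted p = 0.00052), again without overlap. Mcm3, also of the ring, had 27.1, 21.7 and 24.8 CPM in knockout libraries, against 38.3, 29.5, 44.8 and 41.4 CPM in wild-type libraries, a change of -0.64 (SE 0.13, edgeR adjusted p = 0.00333). Mcm2, Mcm5 and the loader Cdc6 fell by 0.47, 0.52 and 0.56 on the log2 scale.

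The ring subunit Mcm7 was not called. It had 41.9, 36 and 40.8 CPM in knockout libraries, against 44.4, 35.6, 44.5 and 49.3 CPM in wild-type libraries. The groups overlapped and the change was -0.12 (SE 0.11, edgeR adjusted p = 0.438). In the mouse annotation Mcm7 overlaps Ap4m1 and Cops6 on the other strand and the microRNA genes Mir25 and Mir93 on its own strand. Ap4m1 changed by 0.16 and Cops6 by -0.05 (edgeR adjusted p = 0.181 and 0.663). Whether strand was used in counting is not stated, so reads of Mcm7 and these neighbours may not be separated. The loader Cdt1 (-0.46, adjusted p = 0.0708) and the helicase activator Gins2 (-0.35, adjusted p = 0.109) also missed the threshold by edgeR. Gins2 overlaps Gse1 on the other strand, and Gse1 rose (1.01, edgeR adjusted p = 0.00435), so reads of this pair may not be separated either.

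Of the genes of DNA synthesis and nucleotide supply, 4 of 5 fell, and 2 of 5 passed without knockout library 3 or without wild-type library 4. Rrm2, the regulated subunit of ribonucleotide reductase, which makes deoxynucleotides, had 15.4, 17.9 and 23.1 CPM in knockout libraries, against 29.5, 24.8, 37.2 and 34.8 CPM in wild-type libraries. The groups did not overlap, and the change was -0.74 (SE 0.15, edgeR adjusted p = 0.00375). Pcna, the sliding clamp of DNA polymerases, had 51.4, 54.6 and 62.2 CPM in knockout libraries, against 70.5, 68.2, 76.4 and 90 CPM in wild-type libraries. Its change was -0.43 (SE 0.11, edgeR adjusted p = 0.00824). Uhrf1, which guides maintenance methylation to new DNA, had 23.4, 20.1 and 23.3 CPM in knockout libraries, against 30.9, 23.4, 34.2 and 34.6 CPM in wild-type libraries. It fell (-0.45, SE 0.13, edgeR adjusted p = 0.0178), with knockout library 2 and wild-type library 2 nearly level. Tyms, the thymidylate synthase, fell by 0.41. Rrm1, the other reductase subunit, had 47, 48.2 and 49.5 CPM in knockout libraries, against 58, 48.3, 65.9 and 69 CPM in wild-type libraries. Wild-type library 2 lay within the knockout range, and the change of -0.31 missed the threshold (SE 0.11, edgeR adjusted p = 0.0514).

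The 2 E cyclins, which with Cdk2 start S phase, differed in inguinal fat. Ccne2 had 5.32, 6.62 and 8.65 CPM in knockout libraries, against 11.4, 8.9, 12.8 and 13.8 CPM in wild-type libraries. It fell without overlap, with a change of -0.76 (SE 0.18, edgeR adjusted p = 0.00674). Ccne1 had 11.4, 13.3 and 9.1 CPM in knockout libraries, against 11.8, 10.2, 10.2 and 12.5 CPM in wild-type libraries. Its groups overlapped and its change was 0.02 (SE 0.14, edgeR adjusted p = 0.947), with a sign that turned in 5 alternatives. The difference between the 2 cyclins was not tested. E2f1, the activator of replication genes, had 11.5, 10 and 11.9 CPM in knockout libraries, against 18.4, 16.7, 20.6 and 19.9 CPM in wild-type libraries. It fell without overlap (-0.75, SE 0.12, edgeR adjusted p = 0.000428).

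**Figure D3:**
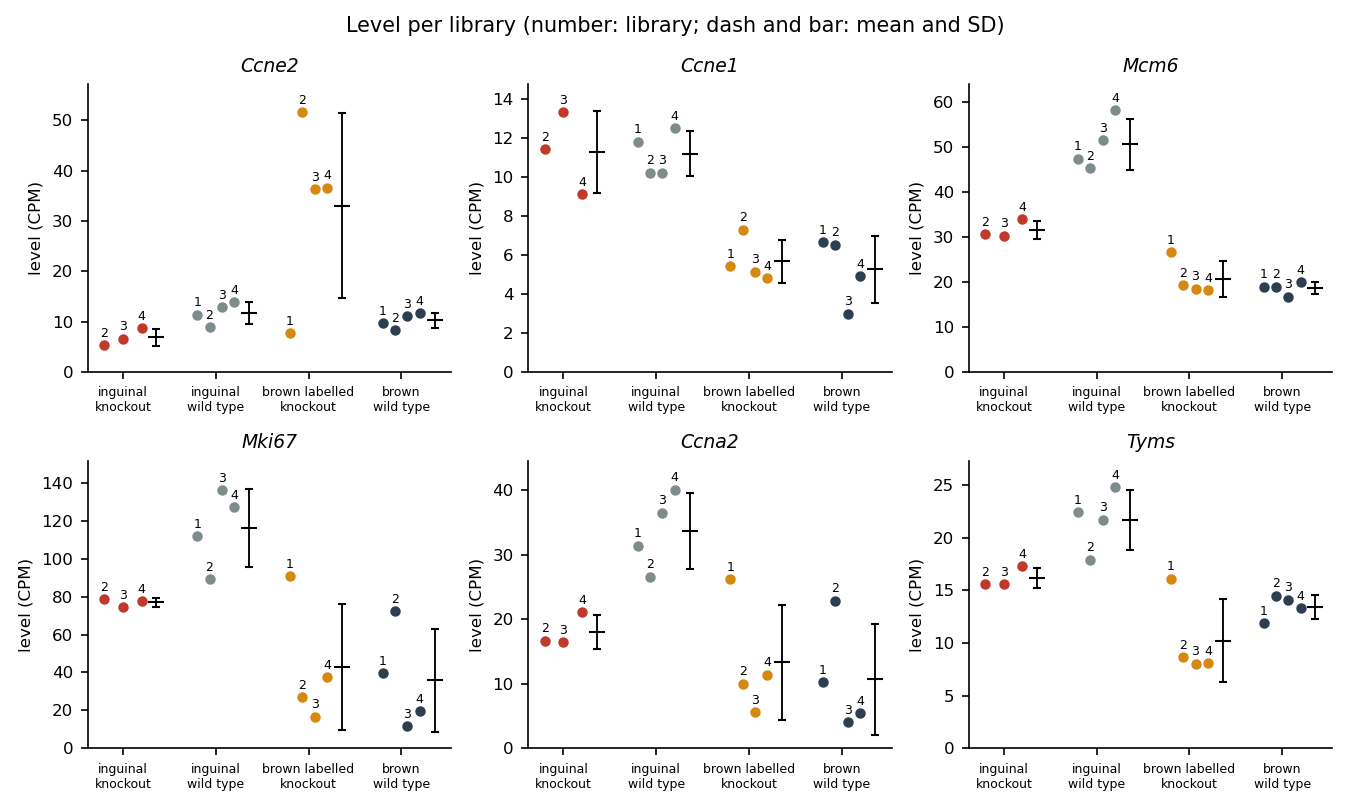
Level in CPM (vertical axis, from 0) of 6 members in each library, with the library's number, and each group's mean and SD. Ccne1 overlaps between the inguinal groups while Ccne2, Mcm6, Mki67, Ccna2 and Tyms are lower in inguinal knockout libraries, and in brown fat labelled knockout library 1 stands apart from libraries 2 to 4 for Ccne2 and Tyms.

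Of the mitotic cyclins, Cdk1 and Foxm1, 3 of 5 fell, and 5 of 5 passed without wild-type library 2, by DESeq2's Wald test or with no filter on low counts. Ccna2, cyclin A2, had 16.7, 16.4 and 21.1 CPM in knockout libraries, against 31.4, 26.6, 36.5 and 40.1 CPM in wild-type libraries. Its change of -0.88 (SE 0.14, edgeR adjusted p = 0.000512) was the lowest of the 43. Ccna2 overlaps Exosc9 on the other strand, and reads of this pair may not be separated. Exosc9 had 17.4 to 20.5 CPM in knockout libraries, against 19 to 20.4 CPM in wild-type libraries (-0.01, edgeR adjusted p = 0.94). Cdk1, the mitotic kinase, had 17.9, 18.7 and 24.2 CPM in knockout libraries, against 33.3, 26.7, 39.9 and 42.2 CPM in wild-type libraries, without overlap (-0.79, SE 0.16, edgeR adjusted p = 0.00244). Ccnb2, a cyclin B, fell by 0.67 on the log2 scale (edgeR adjusted p = 0.0127). The main cyclin B, Ccnb1, had 7.85, 7.8 and 10.2 CPM in knockout libraries, against 12.2, 8.27, 12.5 and 16.3 CPM in wild-type libraries. Wild-type library 2 lay inside the knockout range, and Ccnb1 missed the threshold (-0.51, SE 0.19, edgeR adjusted p = 0.0682). Foxm1, the transcription factor of late cell cycle genes, missed it too (-0.35, SE 0.13, edgeR adjusted p = 0.056). A pseudogene of Ccnb2 is in the table with up to 89 counts in a library, and reads of the pair may be split.

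Among the Aurora, Polo and chromosomal passenger genes, 4 of 5 fell, but each of these 4 calls was lost in at least 2 of the 7 fits that left out 1 library. The count was 0 of 5 without knockout library 3, 1 of 5 without knockout library 2 and 2 of 5 without wild-type library 4. It was 2 of 5 by limma-voom, which was run with library quality weights throughout. Aurka, the kinase of the spindle poles, had 6.36, 6.15 and 8.55 CPM in knockout libraries, against 10.8, 7.86, 12.7 and 13.1 CPM in wild-type libraries (-0.65, SE 0.18, edgeR adjusted p = 0.016). Birc5, or survivin, a passenger subunit, had 11.3, 9.28 and 16 CPM in knockout libraries, against 20.5, 15.1, 22.5 and 28.1 CPM in wild-type libraries (-0.81, SE 0.22, edgeR adjusted p = 0.0166). For both genes knockout library 4 lay above wild-type library 2, so the groups overlapped by that pair. The passenger Cdca8 and the kinase Aurkb each fell by 0.61 on the log2 scale (edgeR adjusted p = 0.0145 and 0.0183). Cdca8 overlaps 9930104L06Rik on the other strand, which was not called (0.01, edgeR adjusted p = 0.973). Plk1, the Polo kinase, had 6.36, 5.92 and 6.62 CPM in knockout libraries, against 7.53, 5.21, 8.01 and 8.53 CPM in wild-type libraries. Here wild-type library 2 was the lowest of all 7, and the change was -0.21 (SE 0.17, edgeR adjusted p = 0.387).

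All 8 genes of the spindle checkpoint, the kinetochore and the anaphase-promoting complex fell, and 5 of 8 passed without knockout library 2, without knockout library 3 or by limma-voom. Cenpf, a kinetochore protein of the dividing cell, had 10.2, 9.75 and 11.4 CPM in knockout libraries, against 18, 13.3, 19.2 and 20.4 CPM in wild-type libraries (-0.75, SE 0.14, edgeR adjusted p = 0.00179). Cenpe, a kinetochore motor, had 9.75, 9.25 and 10.3 CPM in knockout libraries, against 14.6, 12, 18.2 and 17.1 CPM in wild-type libraries (-0.65, SE 0.14, edgeR adjusted p = 0.00424). Ube2c, the ubiquitin carrier of the anaphase-promoting complex, had 11.5, 10.7 and 12.2 CPM in knockout libraries, against 17.3, 13.9, 19.9 and 23.1 CPM in wild-type libraries (-0.68, SE 0.15, edgeR adjusted p = 0.00463). These 3 genes did not overlap between the groups. Bub1b, a checkpoint protein, had 13.4, 12.7 and 15.3 CPM in knockout libraries, against 19.3, 13.7, 22.2 and 22.6 CPM in wild-type libraries (-0.48, SE 0.16, edgeR adjusted p = 0.0342). It overlapped through wild-type library 2 and lost the call without wild-type library 1, 3 or 4 or knockout library 2 or 3. Bub1, Ttk, Ndc80 and the activator Cdc20 had changes between -0.71 and -0.67. Ttk and Cdc20 overlapped between the groups and lost the call in 2 and 3 of the 7 fits that left out 1 library. Ube2c and Cdc20 overlap other genes on the opposite strand.

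Of the spindle and chromosome genes, 7 of 8 fell. Top2a, the topoisomerase that untangles sister chromosomes, had 49.4, 51.7 and 59.9 CPM in knockout libraries, against 78.8, 66.5, 94 and 98.7 CPM in wild-type libraries (-0.64, SE 0.13, edgeR adjusted p = 0.00232). Mki67, the proliferation antigen Ki-67, had 78.8, 74.5 and 77.7 CPM in knockout libraries, against 112, 89.1, 136 and 127 CPM in wild-type libraries (-0.58, SE 0.12, edgeR adjusted p = 0.00369). Prc1, which bundles the midzone of the spindle, had 22.6, 23.3 and 26.5 CPM in knockout libraries, against 36.6, 29.4, 45.2 and 44 CPM in wild-type libraries (-0.67, SE 0.14, edgeR adjusted p = 0.00264). None of these 3 overlapped. Kif20a, a motor of cytokinesis, had 10.9, 10.4 and 11.8 CPM in knockout libraries, against 13.6, 9.45, 13.7 and 13.9 CPM in wild-type libraries. It overlapped through wild-type library 2 and was not called (-0.18, SE 0.14, edgeR adjusted p = 0.363). Prc1, Kif20a and Nusap1 share bases with genes on the other strand, and the neighbours Rccd1 of Prc1 (-0.46, adjusted p = 0.0188) and Oip5 of Nusap1 (-1.09, adjusted p = 0.00209) also fell.

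Each gene's level was divided by its mean over the 7 inguinal libraries. The median relative level of the 26 mitosis genes was 0.73, 0.713 and 0.84 in knockout libraries, against 1.14, 0.892, 1.32 and 1.39 in wild-type libraries. For the 17 replication genes it was 0.807, 0.747 and 0.826 in knockout libraries, against 1.16, 0.925, 1.2 and 1.27 in wild-type libraries. Wild-type library 2 was thus the lowest of its group in both classes, and it came closest to the knockout libraries. Wild-type library 4 was the highest of the 7 libraries for 19 of 26 mitosis genes and 9 of 17 replication genes. Leaving out 1 inguinal library at a time gave 23 to 38 members called lower, with the fewest when knockout library 3 was left out.

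**Figure D4:**
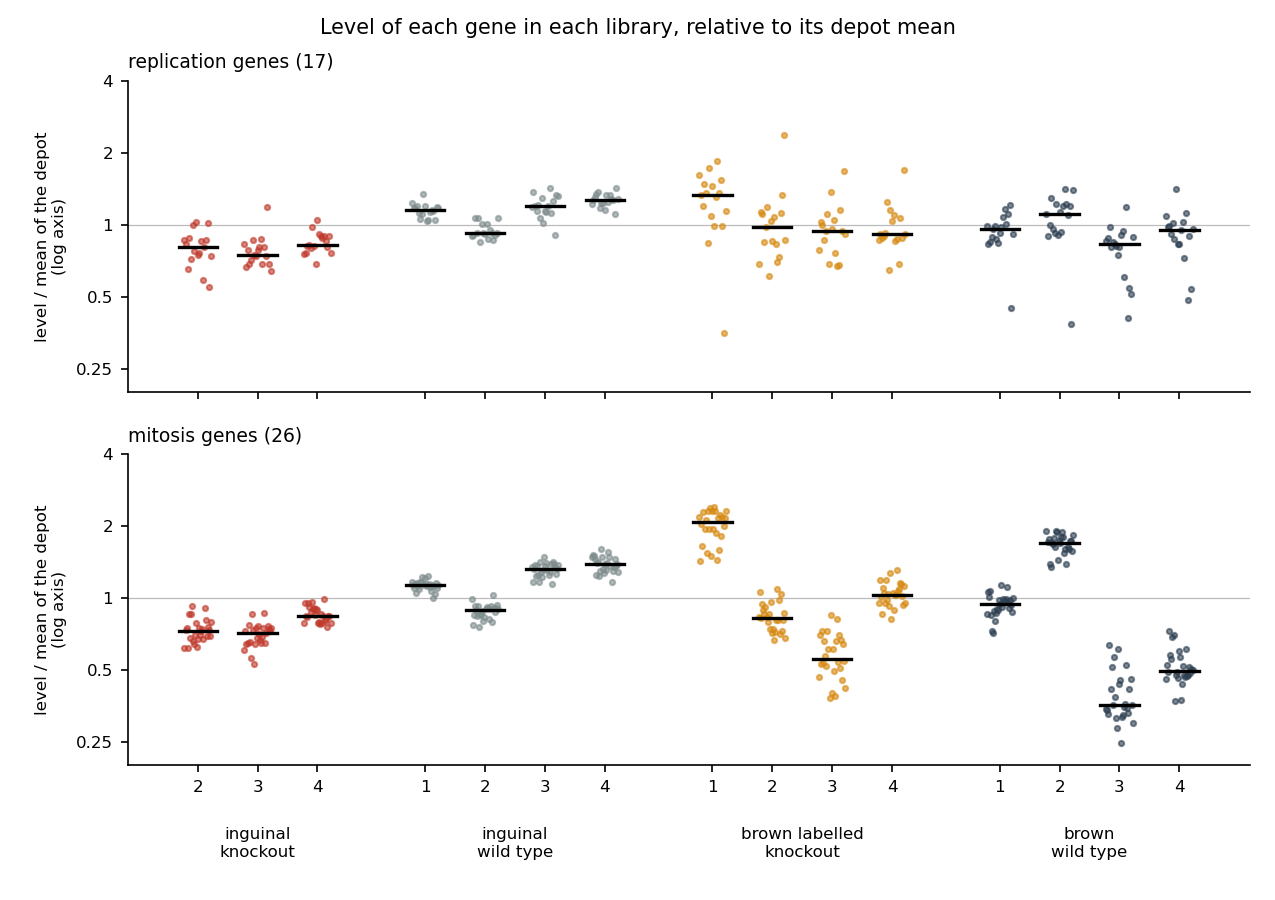
Level of each gene in each library divided by its mean over the libraries of its depot (vertical log axis; points: genes; black bar: median), for 17 replication genes (top) and 26 mitosis genes (bottom). Medians of the mitosis genes lie between 0.713 and 0.84 in inguinal knockout libraries and between 0.892 and 1.39 in inguinal wild-type libraries, and they spread between 0.356 and 2.07 over the brown libraries.

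Other cell cycle genes were read from lists that hold none of the 43 but were likewise chosen with earlier results of these data known. Of 44 further replication genes tested, 26 fell and 1 rose (Rfc1, a clamp loader subunit, 0.25), with a median of -0.47. DNA ligase 1, Lig1, had 14.8, 14.3 and 16.9 CPM in knockout libraries, against 26.5, 20.5, 28.3 and 26.8 CPM in wild-type libraries (-0.72, edgeR adjusted p = 0.000742). Of 64 further mitosis genes, 45 fell and 0 rose, with a median of -0.57. Pbk, a mitotic kinase, had 6.74, 6.32 and 8.13 CPM in knockout libraries, against 12.2, 10.5, 12.8 and 16.4 CPM in wild-type libraries (-0.87, SE 0.16, edgeR adjusted p = 0.00136). Both counts are read beside the 13.3% of all genes that fell. They were smaller in several alternatives. The further mitosis genes called lower numbered 16 without knockout library 3, 25 without knockout library 2, 24 without wild-type library 4, 28 by limma-voom and 3 with all 4 groups in 1 fit. The further replication genes called lower numbered 17 of 44 without wild-type library 4 and 13 of 45 with all 4 groups in 1 fit, and Rfc1 was not called in several alternatives. Of 6 checkpoint kinases, 3 fell and 0 rose, with 1 lower when all 4 groups were in 1 fit. Among them Wee1, the kinase that restrains Cdk1, had 5.22, 4.88 and 5.09 CPM in knockout libraries, against 8.44, 9.59, 9.5 and 10.7 CPM in wild-type libraries (-0.91, SE 0.14, edgeR adjusted p = 0.000302).

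Of 13 G1 cyclins, kinases and activating factors, 2 fell (Skp2 and Cdk2) and 2 rose, beside 13.3% and 15.3% of all genes, so the counts are near the background. Without knockout library 3 none of the 13 was called lower. E2f2, an activating E2F protein of the same family as E2f1, had 34.5, 35.7 and 31.2 CPM in knockout libraries, against 13, 9.28, 12.2 and 11.1 CPM in wild-type libraries. It rose without overlap (1.58, SE 0.12, edgeR adjusted p = 1.54e-06), while E2f1 fell. Cdk6, a partner of D cyclins, rose by 0.85 (SE 0.21, edgeR adjusted p = 0.00825). Of 23 CDK inhibitors, pocket proteins and repressors tested, 5 fell and 3 rose, with the rising count again near the background. The lower count was 3 without wild-type library 3 or 4 and by limma-voom and 0 with all 4 groups in 1 fit, and 5 were higher without knockout library 2. Cdkn1a, the inhibitor p21, had 127, 126 and 92.8 CPM in knockout libraries, against 23.7, 26.5, 36.9 and 40.7 CPM in wild-type libraries. It rose without overlap (1.86, SE 0.19, edgeR adjusted p = 0.00012) and passed in all 14 alternatives. Cdkn1c, the inhibitor p57, had 10.3, 9.15 and 11.3 CPM in knockout libraries, against 18.2, 20.7, 16.1 and 16.9 CPM in wild-type libraries, and fell (-0.80, SE 0.12, edgeR adjusted p = 0.000413). E2f2, Cdk6 and Cdkn1c each missed the threshold in 1 of 14 alternatives.

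Marker genes of several cell types also differed between the inguinal groups, and they are given as summed CPM. Skeletal muscle fibre markers summed to 33.9 to 39.1 in knockout libraries, against 113 to 319 in wild-type libraries, and 6 of 7 were called lower. Endothelial markers summed to 782 to 857 in knockout libraries, against 898 to 1110 in wild-type libraries, and 4 of 6 were called lower. B cell markers summed to 5.63 to 15.3 in knockout libraries, against 13.5 to 24.1 in wild-type libraries, and 2 of 8 were called lower, a count that lay between 0 and 6 with 1 library left out. Epithelial markers summed to 0.942 to 1.27 in knockout libraries, against 3.14, 3.46, 4.88 and 9.85 in wild-type libraries. Of the 6, 1 could be tested and was lower. Cdh1 alone had 0.807 to 1.13 CPM in knockout libraries, against 2.65 to 3.12 CPM in wild-type libraries. Krt5 was at 0 in all 3 knockout libraries, but it ran from 0 to 0.461 CPM in wild-type libraries. Adipose progenitor markers summed to 477 to 560 in knockout libraries, against 549 to 687 in wild-type libraries, with Cd34 and Ly6a lower and Dlk1 higher of 7. Brown or beige adipocyte markers summed to 2640 to 3360 in knockout libraries, against 1300 to 1980 in wild-type libraries, and 3 of 5 were called higher. The part of these cell types in the lower cell cycle genes was not tested. Markers of germinal centre B cells, whose cells divide fast, summed to 10 to 12 in knockout libraries, against 7.21 to 8.78 in wild-type libraries, and 1 of the 2 that could be tested was higher. Macrophage markers (281 to 337 in knockout libraries, against 283 to 359 in wild-type libraries) and T cell markers (10.8 to 22.6, against 11 to 18.7) had no member called of 7 and of 8. Erythroid, myeloid progenitor, thymocyte and adipocyte sums overlapped between the groups. Within them the erythropoietin receptor Epor was lower (2.59 to 4.19 CPM in knockout libraries, against 6.08 to 9.04 CPM in wild-type libraries, -1.02, edgeR adjusted p = 0.00168) and the lipid droplet gene Plin1 was higher (0.52, edgeR adjusted p = 0.00677). Adipocyte markers themselves were abundant in every inguinal library (17200 to 18200 in knockout, against 17300 to 19600 in wild type) and in every brown library (9400 to 10400 in the labelled knockout, against 10500 to 12400 in wild type).

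In newborn brown fat, none of the 43 genes passed the edgeR test between labelled knockout and wild type. The calls were 0 lower and 0 higher, beside 0.076% and 0.184% of all 15796 genes. In simulated data that test called 8.96% of 1.5-fold changes in brown fat, against 61.2% in inguinal fat. Most changes of that size could thus be missed in brown fat. At an unadjusted edgeR p under 0.05 there were 2 of 43 members, Cdt1 and Ccne2, beside 2930 of all 15796 genes, a larger share. By DESeq2's Wald test 1 member was higher and 0 were lower, beside 629 higher and 403 lower of all 15796 genes. By limma-voom 3 were higher and 1 was lower, beside 1618 higher and 1509 lower of all genes. That fit used quality weights, which give less weight to a library far from the others of its group. It called Ccne2, Cdt1 and Mcm7 higher and Tyms lower, and Ccne2, Mcm7 and Tyms also passed without labelled knockout library 1. None of these member counts exceeds its share over all genes. The log2 change was above 0 for 38 of 43 members, beside 50.9% of all genes, and for all 26 mitosis genes. That direction depended on labelled knockout library 1: the median mitosis change was 0.32 with it and -0.12 without it. The groups did not overlap for 2 members, Cdt1 and Pcna, both higher, beside 4.88% of all genes. Cdt1 had 4.65, 4.41, 5.85 and 4.9 CPM in labelled knockout libraries, against 3.58, 3.87, 3.18 and 3.55 CPM in wild-type libraries (0.48, SE 0.17, edgeR adjusted p = 0.181).

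The other members with the lowest p of their role in brown fat overlapped between the groups. Uhrf1 had 22.3, 16.2, 16.7 and 15.5 CPM in labelled knockout libraries, against 16.1, 15.9, 5.88 and 7 CPM in wild-type libraries (0.65, SE 0.32, edgeR adjusted p = 0.315). Wild-type libraries 3 and 4 were the low ones. Foxm1 had 19.2, 7.53, 4.52 and 9.24 CPM in labelled knockout libraries, against 7.16, 11.4, 3.5 and 4.85 CPM in wild-type libraries (0.59, SE 0.47, edgeR adjusted p = 0.539). Cdca8 had 11.7, 4, 3.68 and 4.95 CPM in labelled knockout libraries, against 4.04, 8.26, 1.95 and 1.87 CPM in wild-type libraries (0.59, SE 0.54, edgeR adjusted p = 0.594). In both genes labelled knockout library 1 was the highest of the 8. Bub1b had 24.5, 15.7, 13.9 and 20.8 CPM in labelled knockout libraries, against 14.6, 23.5, 9.98 and 7.56 CPM in wild-type libraries (0.43, SE 0.33, edgeR adjusted p = 0.522). Prc1 had 31.3, 17.8, 11.4 and 19.7 CPM in labelled knockout libraries, against 15.6, 27.6, 5.68 and 8.19 CPM in wild-type libraries (0.49, SE 0.48, edgeR adjusted p = 0.624).

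The member with the largest difference in brown fat was cyclin E2. Ccne2 had 7.65, 51.6, 36.3 and 36.6 CPM in labelled knockout libraries 1 to 4, against 9.71, 8.35, 11.1 and 11.7 CPM in wild-type libraries. Libraries 2 to 4 thus stood above every wild-type library, while library 1 stood below every one. With all 8 libraries the change was 1.68 (SE 0.46, edgeR adjusted p = 0.13). Without labelled knockout library 1 it was 2.01, or 4.03-fold (SE 0.16, edgeR adjusted p = 0.000257), and over all alternatives the adjusted p ran up to 0.294. Ints8, which overlaps Ccne2 on the other strand, had 25.9 to 37.9 CPM in labelled knockout libraries, against 25.3 to 27.3 CPM in wild-type libraries (0.28, edgeR adjusted p = 0.274). Cyclin E1 did not show that pattern, with 5.4, 7.28, 5.14 and 4.8 CPM in labelled knockout libraries, against 6.64, 6.52, 2.98 and 4.9 CPM in wild-type libraries (0.10, SE 0.26, edgeR adjusted p = 0.87).

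Without labelled knockout library 1, 4 of 43 members passed, all of replication: 2 higher, beside 9.66% of all genes, and 2 lower, beside 8.41%. Neither count exceeds its background share. Beside Ccne2, Mcm7 rose: it had 61.3, 57.5 and 64.4 CPM in libraries 2 to 4 of the labelled knockout, against 51.1, 47.8, 43 and 45.3 CPM in wild-type libraries (0.38, SE 0.09, edgeR adjusted p = 0.017). Tyms had 8.66, 8.04 and 8.1 CPM in those libraries, against 11.9, 14.5, 14.1 and 13.3 CPM in wild-type libraries, and fell (-0.71, SE 0.13, edgeR adjusted p = 0.00583). Rrm1 had 36.4, 33.2 and 37.5 CPM there, against 46.9, 52.4, 41 and 44.8 CPM in wild-type libraries, and fell (-0.38, SE 0.10, edgeR adjusted p = 0.0287). Library 1 lay above every wild-type library for Tyms (16.1 CPM) and Rrm1 (57 CPM) and within the wild-type range for Mcm7 (43.4 CPM). Of the 26 mitosis genes 0 passed in that fit, and 0 had an unadjusted p under 0.05. Between these groups 3 members lay fully lower and 4 fully higher, beside 15.5% and 15% of all genes.

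Within each brown group, mitosis genes varied more between libraries than replication genes did. In wild-type brown fat the highest library exceeded the lowest by a median of 4.45-fold for mitosis genes and 1.29-fold for replication genes, beside 1.37-fold for all genes. All 26 mitosis genes exceeded 2-fold there, as did 3 of 17 replication genes (Rrm2, Uhrf1 and Ccne1) and 19.4% of all genes. In the labelled knockout the medians were 3.44-fold for mitosis and 1.52-fold for replication genes, beside 1.6-fold for all genes, and 24 of 26 mitosis genes and 4 of 17 replication genes exceeded 2-fold, beside 31.9% of all genes. No member exceeded 2-fold within either inguinal group, where the medians were 1.24-fold for mitosis and 1.21-fold for replication genes in the knockout, beside 1.3-fold for all genes, and 1.56-fold and 1.39-fold in wild type, beside 1.26-fold. Of all genes, 14.2% exceeded 2-fold in the inguinal knockout and 14.8% in inguinal wild type. The difference in spread between the classes was not tested.

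The mitosis genes moved over the brown libraries together. Mki67 had 90.7, 26.8, 16.6 and 37.5 CPM in labelled knockout libraries, against 39.5, 72.2, 11.8 and 19.6 CPM in wild-type libraries. Cenpe had 20.3, 5.62, 4.2 and 7.53 CPM in labelled knockout libraries, against 9.57, 15.2, 2.09 and 3.15 CPM in wild-type libraries. For both genes library 1 of the labelled knockout and library 2 of wild type were high, and wild-type libraries 3 and 4 were low. Over the class, labelled knockout library 1 was the highest of 8 for 23 of 26 mitosis genes, and wild-type library 3 was the lowest for 22. The summed level of the 26 mitosis genes was 577, 242, 166 and 301 CPM in labelled knockout libraries, against 272, 477, 112 and 147 CPM in wild-type libraries. The sum of the 17 replication genes was 312, 307, 280 and 290 CPM in labelled knockout libraries, against 262, 278, 229 and 249 CPM in wild-type libraries. The mitosis sum thus ranged far more widely than the replication sum, and the ratio of the sums was 1.85, 0.788, 0.593 and 1.04 in labelled knockout libraries, against 1.04, 1.72, 0.489 and 0.588 in wild-type libraries.

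Sums of marker genes are given beside this spread, in the same order of libraries. Myoblast markers summed to 14.9, 8.53, 8.39 and 11.6 CPM in labelled knockout libraries, against 15.4, 14.4, 6.97 and 9.01 CPM in wild-type libraries. Muscle fibre markers summed to 3500, 2600, 2040 and 2370 CPM in labelled knockout libraries, against 3460, 2760, 1990 and 2300 CPM in wild-type libraries. Both were lowest in wild-type library 3, which also had the lowest mitosis sum, and both were high in labelled knockout library 1 and in wild-type library 1. The myoblast sum was also high in wild-type library 2. Brown or beige adipocyte markers summed to 3810, 6710, 5150 and 6620 CPM in labelled knockout libraries, against 5310, 6110, 9390 and 9490 CPM in wild-type libraries. They were lowest in labelled knockout library 1 and highest in wild-type libraries 3 and 4. Erythroid markers summed to 630, 936, 2790 and 1550 CPM in labelled knockout libraries, against 723, 1610, 477 and 621 CPM in wild-type libraries, with labelled knockout library 3 on top. Adipose progenitor markers summed to 901, 640, 708 and 725 CPM in labelled knockout libraries, against 658, 733, 549 and 612 CPM in wild-type libraries. Epithelial markers summed to 76.2 CPM in labelled knockout library 4 and to no more than 1.56 CPM in any other brown library. No marker tested in these lists was called between the brown groups with all 8 libraries. Without labelled knockout library 1, macrophage markers had 4 of 7 higher, brown or beige adipocyte markers 1 lower and 1 higher of 5, adipose progenitor markers 1 higher of 7, and adipocyte, endothelial and myoblast markers 1 lower each. The part of these cell types in the mitosis spread was not tested.

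**Figure D5:**
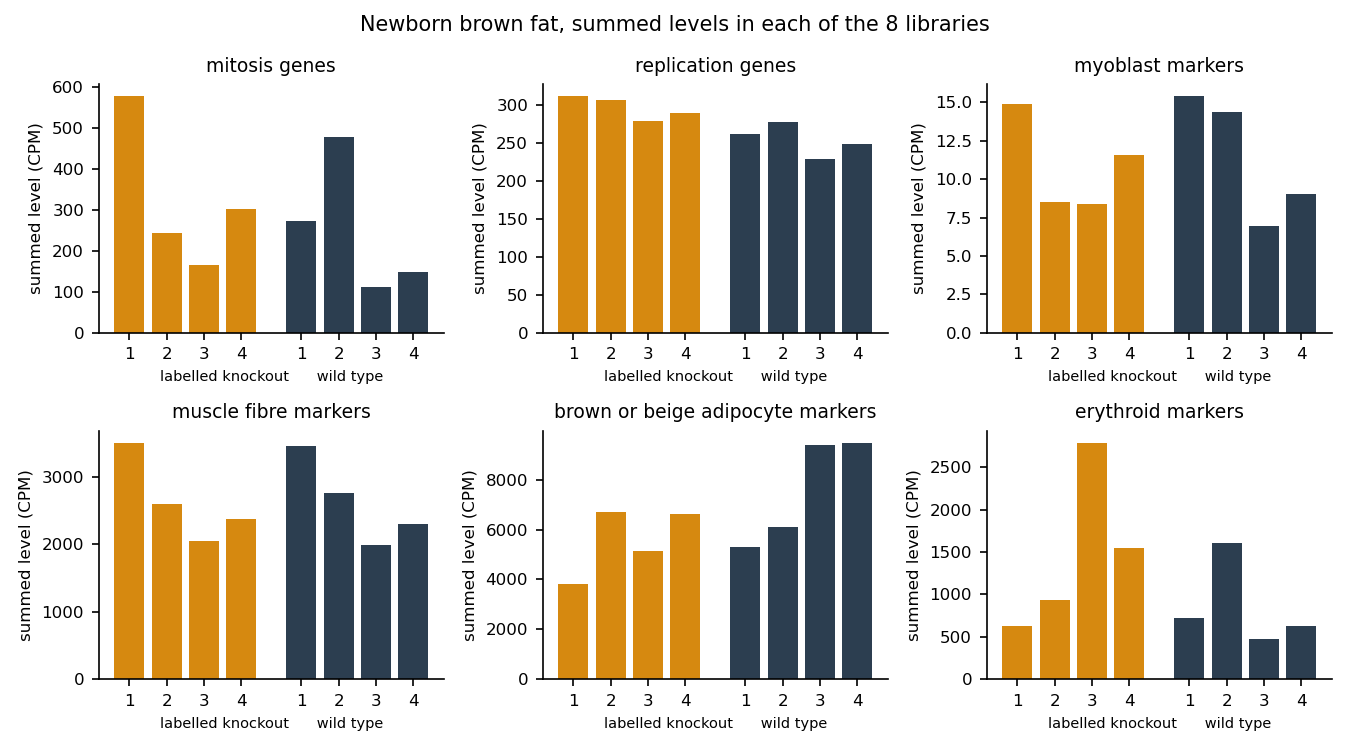
Summed level in CPM (vertical axes, from 0) of the 26 mitosis genes, the 17 replication genes and 4 marker lists in the 8 brown libraries, with labelled knockout libraries 1 to 4 left of wild-type libraries 1 to 4. The mitosis sum ranges between 112 and 577 CPM and the replication sum between 229 and 312 CPM.

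Among the wider cell cycle lists in brown fat, 0 of 44 further replication genes, 0 of 64 further mitosis genes, 0 of 13 G1 regulators and 0 of 6 checkpoint kinases passed by edgeR. Of 23 inhibitors and repressors, 1 rose: Btg1, an antiproliferative factor, had 246, 417, 284 and 443 CPM in labelled knockout libraries, against 144, 144, 160 and 154 CPM in wild-type libraries (1.20, SE 0.18, edgeR adjusted p = 0.0433). Its groups did not overlap, and it missed the threshold in 8 of 15 alternatives (adjusted p up to 0.142). Cdkn1a had 192, 495, 428 and 444 CPM in labelled knockout libraries, against 133, 160, 171 and 273 CPM in wild-type libraries. It passed without labelled knockout library 1 (1.30, edgeR adjusted p = 0.00677) and ran up to an adjusted p of 0.318 over the alternatives. Without library 1 the further replication genes had 4 lower (Cdc7, Pola2, Pola1 and Prim1) and 4 higher (Orc2, Gins4, Pold2 and Rpa2) of 44, and the further mitosis genes 1 higher (Oip5) of 64. The G1 regulators had 3 lower (Ccnd2, Cdc25a and E2f2) of 13, and the checkpoint kinases 1 lower (Chek2) of 6. The inhibitors and repressors had 3 lower (E2f6, Cdkn2c and Rbl1) and 4 higher (Btg1, Btg2, Cdkn1a and Lin52) of 23. These counts are read beside the 8.41% lower and 9.66% higher of all genes in that fit.

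A direct test of the difference between the depots asked whether the knockout effect was lower in inguinal fat than in brown fat. The difference, inguinal minus brown, was below 0 for all 43 members, beside 55.6% of all 16858 genes. It passed for 6 members, all lower, beside 4.2% of all genes, and for 0 in the other direction. The 6 were all replication genes: Ccne2 (-2.46, SE 0.59, edgeR adjusted p = 0.0209), Mcm3 (-0.95, SE 0.20, adjusted p = 0.0106), Cdt1 (-0.95, SE 0.25, adjusted p = 0.0279), Mcm6 (-0.82, SE 0.18, adjusted p = 0.0124), Mcm4 (-0.79, SE 0.17, adjusted p = 0.00943) and Pcna (-0.60, SE 0.14, adjusted p = 0.0158). Of the 26 mitosis genes 0 passed by edgeR and 3 had an unadjusted p under 0.05. Their median difference of -0.98 was further from 0 than the -0.60 of the replication genes. It takes in labelled knockout library 1 of brown fat: the median brown mitosis change was 0.32 with that library and -0.12 without it. Without that library 7 members passed the test of the difference, all replication genes and all lower, beside 1668 lower of all 16808 genes. The standard errors of the mitosis genes were larger: Cdk1 differed by -0.94 with an SE of 0.40, and Mcm6 by -0.82 with an SE of 0.18. Aurka (-1.04, SE 0.55), Ube2c (-1.19, SE 0.52) and Prc1 (-1.18, SE 0.60) were not called either. In simulated data the test of the difference called 23.9% of 2-fold changes. By limma-voom 11 members passed, all lower, mitosis genes Prc1 and Ube2c among them, beside 1777 lower of all 16858 genes. The count was 13 without wild-type brown library 2, 5 of them mitosis genes, beside 853 lower of all 16807 genes. It was 3 (Mcm3, Mcm4 and Mcm6) without inguinal knockout library 3, beside 262 lower of all 17339 genes. Since the 2 fat depots were taken at different ages, depot and age cannot be told apart here.

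Wild-type inguinal fat at day 24 had more of most of these transcripts than wild-type brown fat at day 0.5. Of 43 members, 32 were higher and 0 lower, beside 30.7% of all 15979 genes in each direction. By class, 15 of 17 replication genes and 17 of 26 mitosis genes were higher, with medians of 1.19 and 1.29. The mitosis count depended on the fit: it was 26 by limma-voom, 8 with no filter on low counts, 7 without brown library 1 or inguinal library 4, 8 without brown library 4 and 10 without inguinal library 1 or 3. The libraries did not overlap for 27 members, all higher, beside 28.6% of all genes. Cdc6 showed the largest change, with 8.54, 7.75, 9.96 and 9.42 CPM in inguinal libraries, against 1.55, 2.19, 1.46 and 2.52 CPM in brown libraries (2.20, SE 0.19, edgeR adjusted p = 1.46e-06). Mcm7 and Ccne2 were the replication genes not called. Mcm7 had 44.4, 35.6, 44.5 and 49.3 CPM in inguinal libraries, against 51.1, 47.8, 43 and 45.3 CPM in brown libraries (-0.11, SE 0.10, edgeR adjusted p = 0.365). Ccne2 had 11.4, 8.9, 12.8 and 13.8 CPM in inguinal libraries, against 9.71, 8.35, 11.1 and 11.7 CPM in brown libraries (0.20, SE 0.15, edgeR adjusted p = 0.28). Both overlapped between the depots, while the other ring genes Mcm2 to Mcm6 lay fully higher in inguinal fat (1.19 to 2.08). Rrm2 (1.97, SE 0.27), E2f1 (1.45, SE 0.15) and Rrm1 (0.38, SE 0.11) were higher, Rrm1 with overlapping libraries.

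Among the mitosis genes the standard errors were larger in this comparison too. Mki67 had 112, 89.1, 136 and 127 CPM in inguinal libraries, against 39.5, 72.2, 11.8 and 19.6 CPM in brown libraries (1.70, SE 0.55, edgeR adjusted p = 0.0303). Birc5 had 20.5, 15.1, 22.5 and 28.1 CPM in inguinal libraries, against 6.26, 13.8, 2.29 and 3.45 CPM in brown libraries (1.75, SE 0.54, edgeR adjusted p = 0.0254). Brown library 2 came nearest to the inguinal libraries in both genes. Ccna2 (1.66, SE 0.53), Bub1 (1.65, SE 0.52), Plk1 (0.98, SE 0.33) and Kif20a (0.78, SE 0.30) were higher. Ccnb1 (0.56, SE 0.49, edgeR adjusted p = 0.357) and Bub1b (0.48, SE 0.35, edgeR adjusted p = 0.266) were not called. B cell markers summed to 13.5 to 24.1 CPM in inguinal libraries, against 3.64 to 4.93 CPM in brown libraries, and 8 of 8 were called higher. Muscle fibre markers summed to 113 to 319 CPM in inguinal libraries, against 1990 to 3460 CPM in brown libraries, and 6 of 7 were called lower. T cell markers had 7 of 8 called higher, macrophage markers 5 of 7 and adipocyte markers 5 of 6, while endothelial markers had 6 of 6 called lower and myoblast markers 4 of 4. Brown or beige adipocyte markers had 4 of 5 called lower and erythroid markers 3 of 7, and adipose progenitor markers had 4 higher and 2 lower of 7. The part of these cell types in the comparison was not tested. Tissue and age cannot be told apart in this comparison.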

How the data were processed

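Bulk RNA sequencing measured 15 libraries of mouse fat. Total RNA went into TruSeq stranded mRNA libraries, per the labels' protocols. Tools listed in the submitters' processing notes are TopHat2 2.1.0, featureCounts, Subread and edgeR, with build mm9 and no settings. The authors deposited whole-number counts per Ensembl gene for all libraries in 1 table. Totals were 26059635 to 53923009 counts.

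Groups were taken from the labels. Of 37991 identifiers, 32919 matched a symbol in a gene name table. GENCODE M21 gave the overlapping genes. Counts were tested with edgeR 4.0.16 in R 4.3.3: filterByExpr with a minimum count of 10, TMM, a robust quasi-likelihood fit, and Benjamini-Hochberg over all genes at 0.05. Each comparison was fitted on its own groups, and the difference between depots on all 4. Standard errors came from the log2 change and its F statistic. Levels (CPM) were computed here from the deposited counts after TMM over all libraries. The test was tried on simulated data, with the changed genes picked at random and every gene drawn independently. Of 1.5-fold changes it called 61.2% in inguinal fat, 8.96% in brown fat, 2.99% for the difference and 56.7% between wild-type depots. For 4-fold changes the shares were 98.5%, 89.4%, 68.2% and 93.9%. Genes without a change made up 9.2%, 2.88%, 0% and 8.43% of the calls.

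The members and all lists were chosen with earlier results of these data known. Named members were, per role, the 3 of lowest p and the 1 of highest p in inguinal fat, the 1 of lowest p in brown fat and for the difference, and those of largest and smallest absolute log2 change between wild-type depots. In each wider list the 3 of lowest inguinal p could be named. All others were named after their values were seen. Alternatives were other scalings and filters, DESeq2 1.42.0, limma-voom 3.58.1 with library quality weights, a replicate block, 1 fit of all groups and leaving out each library. No genome was used, and promoter windows are RefSeq's.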

Additional observations from a re-analysis of the deposited data

Results flagged for a closer look

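In 10 of 135 groups of 4 libraries checked, 1 library lay far from the other 3, where chance gives about 1 in 20. Of these, 6 were labelled knockout library 1 of brown fat, always above the others: Mcm5 at 11.2 CPM (others 6.41 to 6.83), Mcm6 at 26.6 (18.1 to 19.2), Cdc6 at 3.08 (1.09 to 1.22), Rrm2 at 15.3 (5.55 to 7.21), Tyms at 16.1 (8.04 to 8.66) and Cdca8 at 11.7 (3.68 to 4.95). Inguinal wild-type library 2 was low for Mcm2 (21 CPM, others 27.6 to 28.8) and Kif20a (9.45, others 13.6 to 13.9). In wild-type brown fat, library 1 was low for Mcm4 (14.8, others 17.1 to 17.4) and library 2 was high for E2f1 (9.34, others 5.91 to 6.39).

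The knockout effect differed between inguinal and brown fat by a test of the difference itself for Ccne2 (-2.46), Mcm3 (-0.95), Cdt1 (-0.95), Mcm6 (-0.82), Mcm4 (-0.79) and Pcna (-0.60), all as log2 inguinal minus brown.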

How the results depend on the processing

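Inguinal members called lower numbered 34, and 5 with all 4 groups in 1 fit (23 to 38 with 1 library left out). In brown fat, members called higher numbered 0, but 1 by DESeq2's Wald test, 3 by limma-voom and 1 with all 4 groups in 1 fit (0 to 2 with 1 library left out). Those called lower numbered 0, but 1 by limma-voom (0 to 2 with 1 library left out). The counts over all genes moved too, from 29 higher and 12 lower. They were 629 and 403 by DESeq2's Wald test, 1618 and 1509 by limma-voom, and 701 and 450 with all 4 groups in 1 fit. Members whose knockout effect was lower in inguinal than in brown fat numbered 6, but 11 by limma-voom and 3 with the replicate block (3 to 13 with 1 library left out). All genes lower in that test numbered 708, but 1777 by limma-voom and 388 with the replicate block. Members higher in wild-type inguinal than in wild-type brown fat numbered 32, but 19 with the replicate block (22 to 40 with 1 library left out).

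The replicate numbers are not known to pair libraries. Same-numbered libraries correlated in their deviations at -0.126, -0.060 and 0.099 in inguinal fat, -0.070 to 0.199 in brown fat and -0.051 to 0.086 between depots. The block gave 35 in inguinal and 0 in brown fat, and 4 of 26 mitosis genes higher between wild-type depots, against 17 without it. For Ccne1, inguinal knockout against wild type, the change of 0.02 was -0.00337 by limma-voom and -0.115 to 0.161 with 1 library left out, below 0 in 4 of those fits (-0.000305, -0.0281, -0.029 and -0.115) and never called. The median brown mitosis change of 0.32 lay between -0.12 and 0.90 with 1 library left out. The cause was not tested.

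Of the alternative values of named members, 330 of 378 in inguinal, 100 of 105 in brown, 137 of 147 for the difference and 166 of 210 between wild-type depots kept direction and side of the threshold. Low-count members such as Cdc6 and Ttk carry more counting error.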
